A study of Mus musculus with 6 samples.

Results

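The genes described here are 7 dual-specificity phosphatases of MAP kinases (Dusp1, Dusp4, Dusp5, Dusp6, Dusp8, Dusp10 and Dusp16) and 3 Sprouty genes (Spry1, Spry2 and Spry4), 10 of the 53465 genes in the count matrix. They were chosen by name, with earlier results of these data known, and each symbol matched 1 Ensembl gene ID. RNA came from brain endothelial cells of the cortex. All mice of both groups were male, 8 to 12 weeks old, and of the genotype tie2-Cre; ai9; rpl22HA/HA. One group had been injected with pentylenetetrazol (PTZ), a convulsant that blocks GABA-A receptors, and the other with phosphate buffered saline (PBS), with 3 libraries per group numbered 1, 2 and 4. The tie2 promoter drives Cre in endothelium but also in some blood cells, ai9 is a fluorescent Cre reporter, and rpl22HA is a Cre-dependent tagged ribosomal protein. The series is titled a translatome. The sources used here do not give how cells or ribosomes were isolated, the PTZ dose or the time to collection. The labels do not say whether the libraries come from separate animals, so p-values measure only the spread among these 6 libraries, which may be technical.

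MAP kinases (ERK, JNK and p38) are switched on by phosphorylation of a threonine and a tyrosine in their activation loop, and dual-specificity phosphatases remove both phosphates. Dusp1 and Dusp4 encode nuclear enzymes that act on ERK, JNK and p38. Dusp5 encodes a nuclear and Dusp6 a cytoplasmic enzyme selective for ERK. Dusp8, Dusp10 and Dusp16 encode enzymes that act mainly on JNK and p38. Sprouty proteins restrain the route from receptor tyrosine kinases through Ras to ERK, and in endothelium they are known as brakes on growth factor signalling during vessel growth. Several of these genes are themselves transcribed in response to the kinases they restrain, which makes them feedback inhibitors.

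The promoter sequences of Dusp1, Dusp8 and Dusp16 are shown because these were the members with a higher level in PTZ in every pair of libraries with the same number. Each is the 250 bases before the transcript start in RefSeq (build GRCm38.p6), written 5′ to 3′ on the strand of the gene, with TGACG and TGACGTCA on either strand in capitals. The windows of Dusp1 and Dusp8 lie inside the gene coordinates given below. Those coordinates come from another annotation, in which these genes begin farther upstream. The same holds for the window of Dusp10, which is counted but not shown. TGACGTCA is the full cyclic AMP response element and TGACG its core.
Dusp1 (chr17:26508473-26508722, minus strand): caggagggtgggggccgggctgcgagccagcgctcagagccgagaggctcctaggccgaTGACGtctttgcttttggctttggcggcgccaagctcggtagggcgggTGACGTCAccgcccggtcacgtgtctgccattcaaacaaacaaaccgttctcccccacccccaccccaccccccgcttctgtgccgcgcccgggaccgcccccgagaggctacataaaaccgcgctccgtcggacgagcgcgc
Dusp8 (chr7:142095285-142095534, minus strand): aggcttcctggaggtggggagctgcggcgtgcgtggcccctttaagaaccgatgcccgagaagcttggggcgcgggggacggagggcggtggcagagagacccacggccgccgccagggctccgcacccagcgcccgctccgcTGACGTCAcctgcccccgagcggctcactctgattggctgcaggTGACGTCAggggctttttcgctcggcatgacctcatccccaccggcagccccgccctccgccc
Dusp16 (chr6:134792629-134792878, minus strand): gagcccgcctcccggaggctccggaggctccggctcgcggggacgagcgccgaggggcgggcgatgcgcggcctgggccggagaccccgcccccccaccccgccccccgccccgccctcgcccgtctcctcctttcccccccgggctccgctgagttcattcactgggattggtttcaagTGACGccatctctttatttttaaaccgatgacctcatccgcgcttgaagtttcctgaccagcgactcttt
In Dusp1 the full element stood at positions -143 to -136 and a separate core at -191 to -187, counted back from the transcript start. In Dusp8 the full element stood at -107 to -100 and at -63 to -56, and in Dusp16 the core at -70 to -66. A window was at hand for 8 of the 10 members. Of these, 2 held TGACGTCA (Dusp1 and Dusp8), against 1.55% of all 32851 RefSeq windows of this length, and 4 held TGACG (Dusp1, Dusp5, Dusp8 and Dusp16), against 17.8%. TGACGTCA reads the same on both strands and contains the core on each of them, so the second count includes the first. None of the 8 windows held TGANTCA (the AP-1 motif, 6.75% of all windows), ACCGGAA (an ETS motif, 2.89%), AGAACA (a glucocorticoid receptor motif, 16.1%) or TATAAA (12.4%), searched on both strands. A match describes the letters only, and binding was not measured.

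Gene counts summed to 11691668 to 15406967 in the PTZ libraries and 11107481 to 14932860 in the PBS libraries. Levels are CPM, counts relative to the library total, after TMM scaling for composition, and log2 fold changes are PTZ over PBS from edgeR's quasi-likelihood test with their standard error (SE). Adjusted p-values are Benjamini-Hochberg values over all 13768 genes that passed a filter on low counts. Endothelial markers (12 genes) summed to 17832 to 29636 CPM in PTZ and 18954 to 25053 CPM in PBS, with every marker detected. Markers of pericytes and smooth muscle (12 genes) summed to 351 to 1130 CPM in PTZ and 205 to 567 CPM in PBS, and all 11 that were tested had a positive log2 fold change. Markers of fibroblasts (8 genes, all positive) summed to 1578 to 3824 CPM in PTZ and 1295 to 2101 CPM in PBS, with 92.0% of the sum from Apod. Markers of microglia and macrophages (9 genes, all negative) summed to 1667 to 2498 CPM in PTZ and 2505 to 3040 CPM in PBS, and those of astrocytes (6 of 7 tested positive) to 67.9 to 218 CPM in PTZ and 52.8 to 144 CPM in PBS. Markers of neurons (3 of 7 positive, 89.1% of the sum from Stmn2) summed to 261 to 472 CPM in PTZ and 280 to 469 CPM in PBS. Those of oligodendrocytes (3 of 7 positive, 89.7% from Mal) summed to 1303 to 1504 CPM in PTZ and 1237 to 1512 CPM in PBS, and those of neutrophils, platelets and red cells (1 of 12 positive) to 6187 to 12438 CPM in PTZ and 7505 to 11627 CPM in PBS. No marker of any list was at 0 in all libraries. The part of these cells in the results below was not tested. In such bulk RNA a change in the number of cells of a type and in the RNA per cell cannot be told apart.

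No member passed the threshold of 0.05 on the adjusted p in edgeR, where 0% of all genes were called in either direction. Dusp1 did pass in DESeq2, in edgeR's exact test and in edgeR without the low-count filter, as given below. It did not pass in limma-voom or in edgeR with other scalings. Of the 10 members, 9 passed the filter on low counts and 7 of these had a positive log2 fold change, against 52.7% of all genes tested. Their median log2 fold change was 0.35, against 0.03 over all genes tested. The median is the value of Spry2 (SE 0.86), a rare member. Of the positive values, those of Dusp6, Spry2 and Spry4 turned negative in fits that left out 1 library. Every PTZ library exceeded every PBS library for 2 of the 9 (Dusp1 and Dusp16), against 7.3% of all genes, and every PTZ library lay below for 0, against 7.04%. At an unadjusted p under 0.05 in edgeR the same 2 genes were higher, against 3.83% of all genes, and 0 were lower, against 3.38%. Within pairs of libraries with the same number, Dusp1, Dusp8 and Dusp16 were higher in PTZ in all 3 pairs, against 18.5% of all genes. Dusp5 and Dusp10 were lower in all 3, against 16.6%, but in pair 4 they were nearly equal. Their differences in log2(CPM + 1) there were -0.042 and -0.032. When edgeR was blocked on replicate number, Dusp1, Dusp8 and Dusp16 (3 members) were higher at an unadjusted p under 0.05, against 5.59% of all genes, and 0 were lower, against 5.31%; none had an adjusted p under 0.05.

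**Figure D1:**
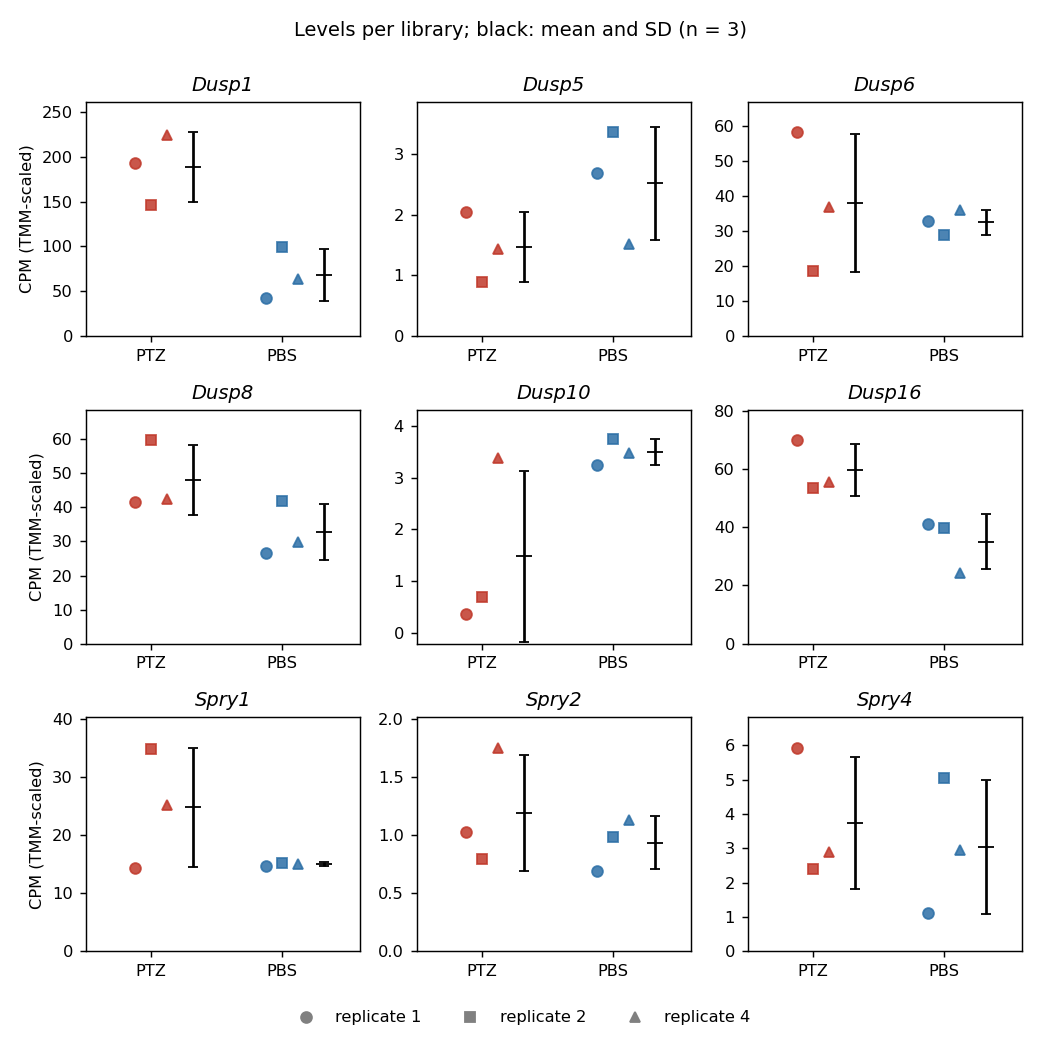
Level of the 9 members that passed the low-count filter in each library (CPM after TMM scaling, vertical axis, a scale of its own for each gene), with PTZ left of PBS, the marker shape giving the replicate number and the black bar the mean ± SD of 3 libraries. Dusp1 and Dusp16 are the genes with no overlap between groups, and Dusp10 shows 2 PTZ libraries far below the other 4.

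Dusp1, the gene of a phosphatase that acts on all 3 kinase classes, had the largest positive fold change of the members tested. Dusp1 (ENSMUSG00000024190, protein coding, chromosome 17, 26505590 to 26562128 on the minus strand, GRCm38) had 194, 147 and 225 CPM in PTZ libraries 1, 2 and 4, against 42.5, 99.6 and 63.4 CPM in PBS libraries 1, 2 and 4. The lowest PTZ library, number 2, lay above the highest PBS library, which was also number 2. The means were 188 ± 39.1 CPM in PTZ and 68.5 ± 28.9 CPM in PBS (SD, n = 3 each), a log2 fold change of 1.46 (SE 0.31), or 2.75-fold. This gene ranked at place 26 of all genes by p in edgeR's quasi-likelihood test, with an unadjusted p of 0.000846 and an adjusted p of 0.426. DESeq2 gave an adjusted p of 0.00687, where 0.385% of the genes with an adjusted p were called higher. The exact test of edgeR gave 0.0125 and called 37 of 13768 genes higher. Dusp1 did not pass in limma-voom (adjusted p 0.511). Nor did it pass in edgeR's quasi-likelihood test with RLE scaling (0.418), the authors' scaling (0.450) or library totals only (0.382). With a filter at a mean of 5 CPM that test gave an adjusted p of 0.392. Without the low-count filter edgeR's quasi-likelihood test gave an adjusted p of 3.64e-04. That fit tested 34777 genes and called 77 of them higher. Its log2 fold change for Dusp1 was 1.43 (SE 0.27), close to the main fit, so its lower p does not reflect a larger change. DESeq2 with the replicate number as a block, an alternative chosen after seeing the data, gave 6.22e-05 and called 132 genes higher. The log2 fold change was 1.80 without PBS replicate 2 and 1.21 without PBS replicate 1, and in all 6 fits that leave out 1 library the adjusted p stayed between 0.271 and 0.991. The annotated gene overlaps Ergic1 on the opposite strand, and their exons share 11 bases. Dusp4, the close relative of Dusp1, had 2 reads in PTZ library 2 and 0 in the other 5 libraries. It lay at or under 3 counts per library everywhere, a floor of 0.187 to 0.298 CPM, and is given no fold change.

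The ERK-selective phosphatase genes gave no difference beyond the spread between libraries. Dusp6 (ENSMUSG00000019960, chromosome 10, 99263231 to 99267489, plus strand) had 58.1, 18.7 and 36.9 CPM in PTZ libraries 1, 2 and 4, against 32.8, 28.7 and 35.8 CPM in the PBS libraries. PTZ library 1 was the highest and PTZ library 2 the lowest of all 6, so the groups overlapped. The log2 fold change was 0.22 (SE 0.37, adjusted p in edgeR = 0.920), and without PTZ replicate 1 it turned to -0.22. Markers of pericytes and smooth muscle had the same order among the PTZ libraries, with summed levels of 1130, 351 and 1032 CPM in PTZ 1, 2 and 4, and 205, 311 and 567 CPM in PBS 1, 2 and 4; their part in the level of Dusp6 was not tested. Dusp5 (ENSMUSG00000034765, chromosome 19, 53529109 to 53542431, plus strand) was rare, with 9 to 28 reads per PTZ library and 20 to 43 per PBS library. It had 2.05, 0.893 and 1.44 CPM in PTZ libraries 1, 2 and 4, against 2.69, 3.36 and 1.51 CPM in the PBS libraries. PBS library 4 lay among the PTZ libraries, and the log2 fold change was -0.78 (SE 0.80, adjusted p in edgeR = 0.859). An antisense gene shares 22.1% of the exon bases of Dusp5, and the sources used here do not state whether counting used strand, so reads of this gene and its antisense partner may be mixed.

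The genes of the JNK and p38 phosphatases had values of different sign: the log2 fold change was positive for Dusp16 and Dusp8 and negative for Dusp10. Dusp16 (ENSMUSG00000030203, chromosome 6, 134715468 to 134792625, minus strand) had 69.98, 53.4 and 55.5 CPM in PTZ libraries 1, 2 and 4, against 41.1, 39.8 and 24.3 CPM in the PBS libraries. The groups did not overlap, with PTZ higher. The means were 59.6 ± 9.02 CPM in PTZ and 35.05 ± 9.36 CPM in PBS (SD, n = 3 each), a log2 fold change of 0.77 (SE 0.27) with an unadjusted p of 0.0158 and an adjusted p of 0.648 in edgeR. Its adjusted p was 0.460 in DESeq2, so it passed in neither tool. The unadjusted p in edgeR was 0.0558 without PTZ replicate 1 and 0.0689 without PBS replicate 4.

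Dusp8 (ENSMUSG00000037887, chromosome 7, 142079490 to 142095843, minus strand) had 41.5, 59.8 and 42.6 CPM in PTZ libraries 1, 2 and 4, against 26.5, 41.96 and 29.7 CPM in the PBS libraries. Library 2 was the highest in both groups, and PBS library 2 lay just above PTZ library 1. The log2 fold change was 0.55 (SE 0.27, adjusted p in edgeR = 0.700), and 0.32 without PTZ replicate 2. Within pairs of equal number the difference in log2(CPM + 1) was close to constant, at 0.63, 0.50 and 0.50 in pairs 1, 2 and 4. Blocked on replicate number, its unadjusted p in edgeR was 0.0272, against 0.0679 without the block, and the adjusted p was 0.408.

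Dusp10 (ENSMUSG00000039384, chromosome 1, 184013302 to 184075636, plus strand) had 0.366, 0.695 and 3.38 CPM in PTZ libraries 1, 2 and 4, against 3.25, 3.75 and 3.48 CPM in the PBS libraries. These levels rest on 5, 7 and 54 reads in PTZ and 52, 38 and 46 reads in PBS. PTZ libraries 1 and 2 were far below all PBS libraries, while PTZ library 4 lay among them. The log2 fold change was -1.22 (SE 0.92, adjusted p in edgeR = 0.793), and it was -0.76 without PTZ replicate 1 (adjusted p in edgeR = 0.956) and -2.71 without PTZ replicate 4 (unadjusted p = 0.022 and adjusted p = 0.639 in edgeR). The spread in PTZ (1.48 ± 1.65 CPM, SD, n = 3) was larger than the mean, whereas the PBS libraries stood close together (3.49 ± 0.252 CPM, SD, n = 3).

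The Sprouty genes each had a positive log2 fold change smaller than that of Dusp1, and each overlapped between the groups. Spry1 (ENSMUSG00000037211, chromosome 3, 37639947 to 37644598, plus strand) had 14.3, 34.8 and 25.3 CPM in PTZ libraries 1, 2 and 4, against 14.7, 15.3 and 15.04 CPM in the PBS libraries. PTZ libraries 2 and 4 lay above every PBS library and PTZ library 1 just below them. The log2 fold change was 0.72 (SE 0.35, adjusted p in edgeR = 0.700). It was 0.36 without PTZ replicate 2 and 1.0005 without PTZ replicate 1. The fibroblast markers summed to 1578, 3824 and 1661 CPM in PTZ 1, 2 and 4, and to 2101, 1894 and 1295 CPM in PBS 1, 2 and 4, and Apod made up most of these sums. The other 7 fibroblast markers summed to 271, 87.9 and 288 CPM in PTZ 1, 2 and 4, and to 95.7, 92.9 and 150.1 CPM in PBS 1, 2 and 4. PTZ library 2, the highest for Spry1 and Apod, was thus the lowest PTZ library for each of the other 7. Their part in the level of Spry1 was not tested. An antisense gene shares 24.4% of the exon bases of Spry1, with the same limit as for Dusp5.

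Spry4 (ENSMUSG00000024427, chromosome 18, 38586247 to 38601415, minus strand) had 5.93, 2.38 and 2.88 CPM in PTZ libraries 1, 2 and 4, against 1.12, 5.03 and 2.95 CPM in the PBS libraries. Both groups spanned nearly the same range, and the log2 fold change was 0.30 (SE 0.78, adjusted p in edgeR = 0.955). It turned to -0.19 without PTZ replicate 1 and to -0.09 without PBS replicate 1. Spry2 (ENSMUSG00000022114, chromosome 14, 105891947 to 105896819, minus strand) had 1.02, 0.794 and 1.75 CPM in PTZ libraries 1, 2 and 4, against 0.687, 0.987 and 1.13 CPM in the PBS libraries. With 8 to 28 reads per PTZ library and 10 to 15 per PBS library, its log2 fold change of 0.35 (SE 0.86, adjusted p in edgeR = 0.953) was smaller than its SE. It turned to -0.04 without PTZ replicate 4.

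**Figure D2:**
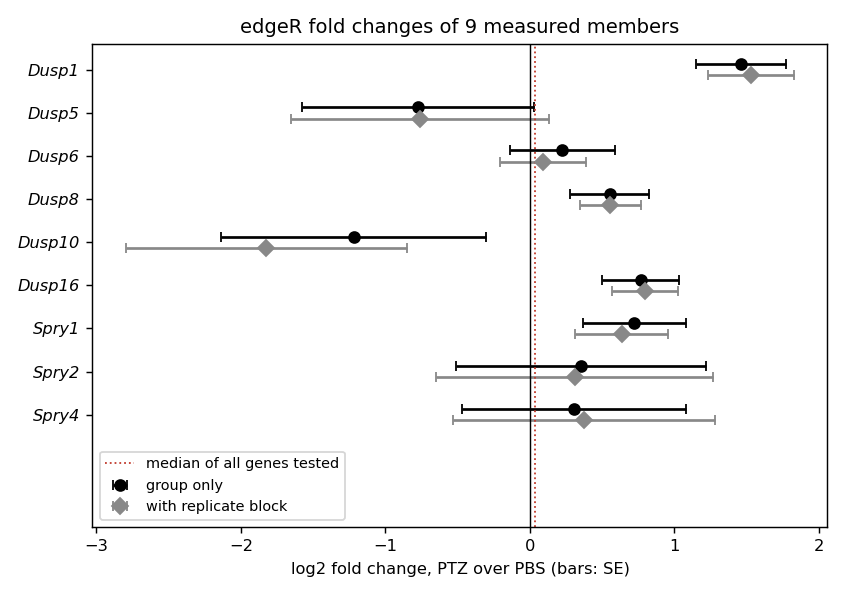
Log2 fold change of each measured member, PTZ over PBS (horizontal axis, bars are the SE), from the fit with the group only (black circles) and with the replicate number as a block (grey diamonds). The dotted line is the median of all genes tested, 0.03; Dusp1 lies farthest to the right at 1.46, or 1.53 with the block, and Dusp10 farthest to the left at -1.22, or -1.82 with the block.

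**Figure D3:**
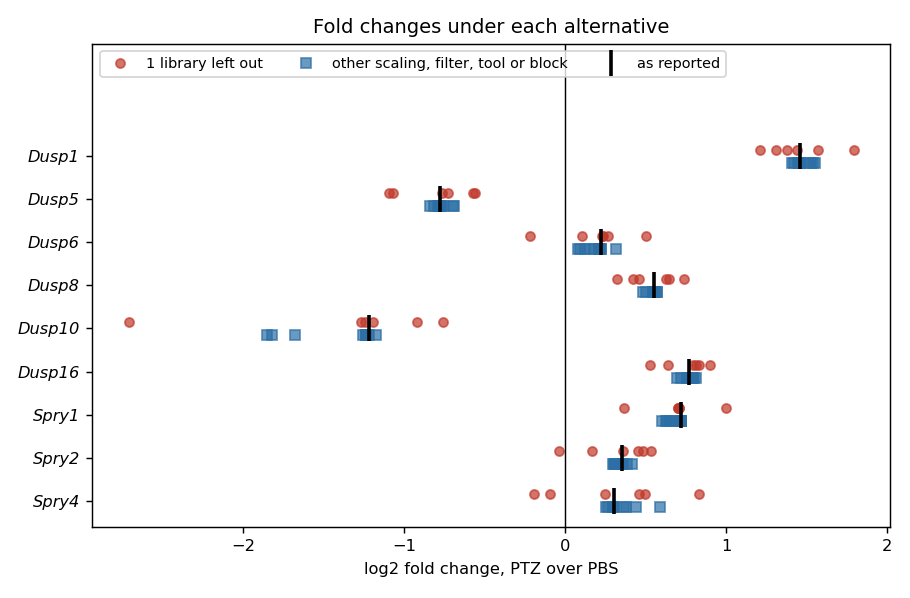
Log2 fold change of each measured member, PTZ over PBS, as reported (black bar), in the 6 fits that leave out 1 library (red circles) and under other scalings, filters, tools or the replicate block (blue squares). Dusp1 stays between 1.21 and 1.80, while Dusp6, Spry2 and Spry4 cross 0 when 1 library is left out.

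To compare levels between the genes, counts were also expressed per kilobase of merged exons (RPKM). Dusp1 was the highest of the members in both groups, with 44.3 to 67.8 RPKM in PTZ and 12.8 to 30.1 RPKM in PBS. In PTZ it was followed by Dusp6 (12.1 ± 6.30 RPKM), Dusp8 (9.84 ± 2.105), Spry1 (8.54 ± 3.53) and Dusp16 (7.65 ± 1.16), whose libraries overlapped one another. In PBS the same order held, with Dusp6 at 10.4 ± 1.14 RPKM, Dusp8 at 6.72 ± 1.67, Spry1 at 5.17 ± 0.097 and Dusp16 at 4.49 ± 1.201 (SD, n = 3 each), and only Spry1 and Dusp16 overlapped among these neighbours. Spry4, Dusp5, Spry2 and Dusp10 lay below 1 RPKM on average in PTZ, between 0.487 and 0.784 RPKM. In PBS these 4 genes averaged 0.448 to 1.148 RPKM, with Dusp10 and Dusp5 the highest of them, and the libraries of neighbours in the order overlapped. On the CPM scale Dusp1 made up 51.4% of the summed reads of the 10 genes in PTZ and 35.4% in PBS.

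Among 9791 protein-coding genes with a mean of at least 5 CPM, those with the profile most like the 3 members of highest mean CPM over all libraries were ranked by the root mean square difference of centred log2(CPM + 1) values over the 6 libraries. Closest to Dusp1 were Kcp (0.167), which encodes a secreted modulator of BMP signals, the secreted glycoprotein gene Stc1 (0.171) and the cell cycle transcription factor gene E2f2 (0.267). Stc1 had 90.3, 60.6 and 84.9 CPM in PTZ libraries 1, 2 and 4, against 19.98, 49.4 and 34.2 CPM in the PBS libraries. Closest to Dusp16 were Zcchc2 (0.0837), the ubiquitin ligase gene Herc2 (0.0932) and the kinase gene Camk1 (0.104), and closest to Dusp8 were Sft2d3 (0.0917), the endothelin gene Edn1 (0.0954) and Adgrf5 (0.0994), an adhesion receptor gene. Edn1 had 186, 261 and 181 CPM in PTZ libraries 1, 2 and 4, against 129, 177 and 151 CPM in the PBS libraries. All of these genes were picked for their likeness to a member over the 6 libraries, so a shared pattern among libraries follows from the choice.

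Other genes of the same pathway were described by lists. No gene of any list passed over all genes in edgeR's quasi-likelihood test, so their genes are counted by sign and at an unadjusted p under 0.05. Over all genes tested 52.7% had a positive value, 3.83% were higher and 3.38% lower at that threshold. In DESeq2 the list genes with an adjusted p under 0.05 were Errfi1 and Fosb. Of the other MAP kinase phosphatase, Sprouty and Spred genes 5 of 7 could be tested, 4 with a positive value and a median log2 fold change of 0.60, none past the unadjusted threshold. Spred1, which restrains Ras with neurofibromin, averaged 31.6 ± 10.02 CPM with PTZ against 20.5 ± 2.22 CPM with PBS (log2 fold change 0.63, SE 0.30), and Dusp7, an ERK phosphatase gene, averaged 37.6 ± 9.64 CPM with PTZ against 56.9 ± 20.1 CPM with PBS (-0.60, SE 0.30). Of 20 genes tested among the other restraints of receptors and Ras, 18 had a positive value, 3 were higher and 0 lower at that threshold (Errfi1, Trib1 and Il17rd), and the median was 0.33. Errfi1, which inhibits the epidermal growth factor receptor, averaged 149 ± 10.6 CPM with PTZ against 19.7 ± 12.9 CPM with PBS (2.93, SE 0.40, adjusted p = 0.283 in edgeR and 9.95e-10 in DESeq2), and the pseudokinase gene Trib1 averaged 46.1 ± 4.48 CPM with PTZ against 22.7 ± 2.49 CPM with PBS (1.02, SE 0.24).

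The kinases that these phosphatases act on were counted by arm of the pathway, beside 52.7% of all genes with a positive value and, at an unadjusted p under 0.05, 3.83% higher and 3.38% lower. Of 18 genes tested in the JNK and p38 cascades 16 had a positive value and the median was 0.43, with 2 genes (Mapk8 and Map3k4) higher at an unadjusted p under 0.05 and 0 lower. Mapk8, which encodes a JNK, averaged 28.6 ± 6.80 CPM with PTZ against 12.1 ± 5.33 CPM with PBS (log2 fold change 1.24, SE 0.40), and Map3k4, an upstream kinase gene, averaged 35.3 ± 3.22 CPM with PTZ against 22.5 ± 3.88 CPM with PBS (0.65, SE 0.26). Of 16 Ras, Raf, MEK, ERK and RSK genes 12 had a positive value, with a median of 0.12, and 0 were higher and 1 lower at that threshold. That gene, the Raf kinase gene Araf, averaged 53.4 ± 7.35 CPM with PTZ against 84.9 ± 9.66 CPM with PBS (-0.67, SE 0.21), and Map2k1, a MEK gene, averaged 29.2 ± 8.66 CPM with PTZ against 18.9 ± 2.21 CPM with PBS (0.63, SE 0.30). Whether the arms differ was not tested. Of 20 receptor and adaptor genes 17 had a positive value (median 0.28) and 3 were higher and 0 lower, Sos1, Pdgfrb and Gab1. Sos1, an activator of Ras, averaged 52.4 ± 8.87 CPM with PTZ against 27.4 ± 10.7 CPM with PBS (0.93, SE 0.32). Pdgfrb, a receptor that marks pericytes, averaged 21.5 ± 14.8 CPM with PTZ against 8.88 ± 1.96 CPM with PBS (1.28, SE 0.51).

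Target genes of ERK signalling had values of both signs, and the shares over all genes were again 52.7% positive, 3.83% higher and 3.38% lower. Of 24 genes tested 18 had a positive value, with a median log2 fold change of 0.20, and 6 were higher (Fosb, Jun, Fosl2, Maff, Ets2 and Fos) and 1 lower (Ier3) at an unadjusted p under 0.05. Among the PBS libraries, number 2 was the highest for every tested gene except Etv1, Etv5, Ets1 and Myc. Egr1 had 10.8, 174 and 7.56 CPM in PBS libraries 1, 2 and 4, against 45.0, 39.8 and 44.4 CPM in the PTZ libraries. Fos had 8.99, 53.6 and 24.3 CPM in PBS, against 79.3, 79.5 and 48.5 CPM in PTZ. The cause was not tested. Fosb, a subunit of AP-1, averaged 10.7 ± 3.08 CPM with PTZ against 1.28 ± 1.06 CPM with PBS (log2 fold change 3.09, SE 0.77, adjusted p = 0.497 in edgeR and 0.00765 in DESeq2). Jun, its partner, averaged 57.1 ± 15.5 CPM with PTZ against 26.3 ± 7.19 CPM with PBS (1.12, SE 0.29). Among the members, Dusp5, Dusp6, Spry2 and Spry4 are also known to be induced by ERK. They had log2 fold changes of -0.78, 0.22, 0.35 and 0.30, as given above, none at an unadjusted p under 0.05 in edgeR. This grouping was not planned and leaves out Dusp1 (1.46), Spry1 (0.72) and Dusp4, which was too rare to test. It is therefore no summary of the ERK-induced members.

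**Figure D4:**
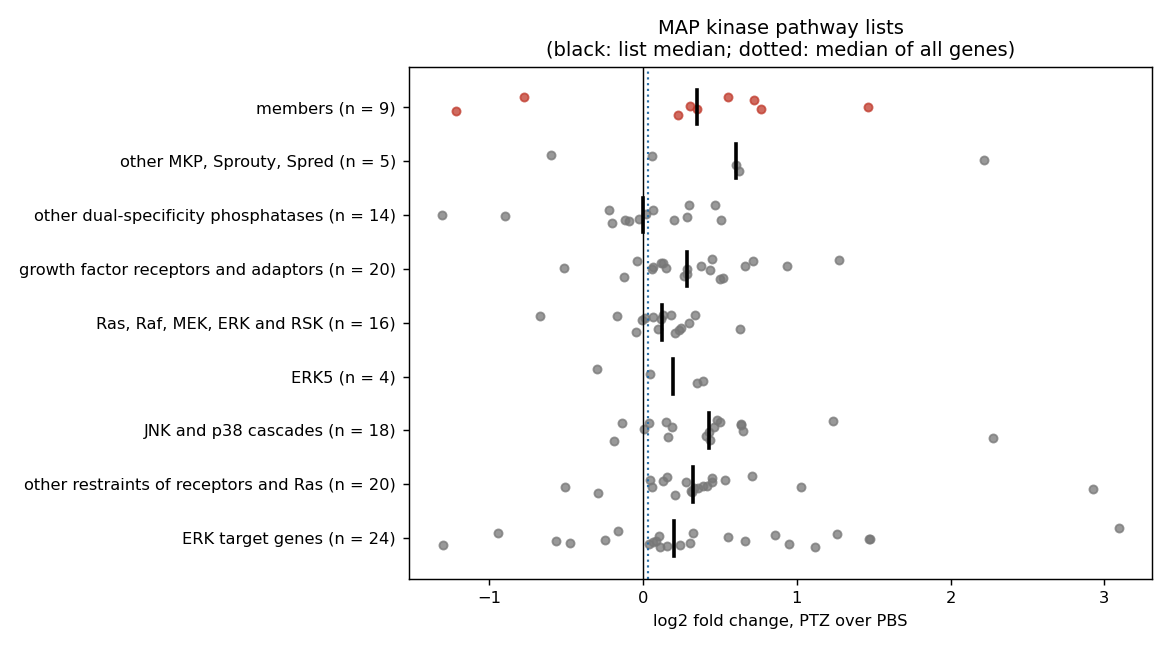
Log2 fold change (PTZ over PBS, horizontal axis) of every tested gene in the member list and in 8 lists of the MAP kinase pathway, 1 point per gene, with the list median as a black bar and the median of all genes tested, 0.03, as a dotted line. The median of the other dual-specificity phosphatases (-0.0027) lies close to it, and those of the members (0.35) and of every other list lie to its right. The highest are those of the other MAP kinase phosphatase, Sprouty and Spred genes (0.60) and of the JNK and p38 cascades (0.43).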

How the data were processed

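RNA of brain endothelial cells was profiled in 3 PTZ and 3 PBS libraries made with a low-input NEBNext kit, per the labels' protocols. Tools listed in the submitters' processing notes are edgeR, HTSeq, TopHat2 2.1.1 and CASAVA, and the build is GRCm38; their roles, the annotation release and the strand setting are not stated there. The authors deposited raw read counts per Ensembl gene for 53465 genes, per the file headers, with 5 summary rows that name no gene. These rows, 16.1% to 22.9% of the reads per library, were left out of totals and tests. PTZ library 1 had the highest share. Its reads assigned to no feature made up 9.34%, against 2.99% to 5.19% in the other libraries. The part of this difference in the results was not tested. For each library a scaled signal was deposited as well, each value being the count divided by 1 factor for the library (100% of values whole within 0.01 reads after multiplication). The origin of the factors is unknown from the sources used here, and they served only as an alternative scaling.

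Symbols were available for 53274 gene IDs, and coordinates and exon lengths were taken from GENCODE M21 (GRCm38). The low-count filter was filterByExpr (minimum count 10 and total 15). Counts were scaled by TMM and tested 2-sided with edgeR 4.0.16 (glmQLFit, glmQLFTest) in R 4.3.3, with the group as the factor. The SE is the fold change on the log2 scale over the root of its F statistic. DESeq2 1.42.0, limma-voom (limma 3.58.1), the edgeR exact test, other scalings and filters, the replicate block and leaving out each library were alternatives. The common biological coefficient of variation was 0.470. Libraries of a group differed by more than sampling noise (chi-square per degree of freedom 49.9 or more). An exact permutation over libraries cannot go below p = 0.1 in this design.

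The titles give both groups the replicate numbers 1, 2 and 4. Deviations from the group means in log2(CPM + 1) correlated at 0.206, 0.266 and 0.263 across genes between libraries with the same number. This passed a rule of over 0.1 in every pair, so differences within pairs and a fit blocked on replicate number are given. Between libraries of unlike number the correlations were all negative, from -0.165 to -0.100. Deviations within a group cancel out, so these negative values follow in part from the positive ones. The main fit used the group only, so its p-values leave this pairing out. Members, lists and markers were chosen with earlier results of these data known. All members were named, from each list the 2 genes with the smallest unadjusted p, and for the 3 members of highest mean CPM the 3 genes closest in profile. Further genes of a list were named after their values were seen, among them those that passed the unadjusted threshold.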

Additional observations from a re-analysis of the deposited data

How the results depend on the processing

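Over 15 or 16 alternatives per member the log2 fold changes of Dusp1, Dusp5, Dusp8, Dusp10, Dusp16 and Spry1 kept their sign. The sign turned for Dusp6 (-0.22) and Spry4 (-0.19) without PTZ replicate 1, for Spry4 without PBS replicate 1 (-0.09) and for Spry2 without PTZ replicate 4 (-0.040). Leaving out 1 library gave at most 0.50 for Dusp6, 0.53 for Spry2 and 0.84 for Spry4. No member was called in edgeR as reported, and 1 member, Dusp1, was called higher without the low-count filter, in DESeq2, in the edgeR exact test and in DESeq2 with the replicate block (added after seeing the data). The edgeR fit with the replicate block called 0 members, with an adjusted p of 0.235 for Dusp1, and it changed no other call. Over all genes edgeR called 0 higher and 0 lower (528 and 465 at an unadjusted p under 0.05). The counts were 77 and 44 of 34777 genes without the filter. They were 53 and 23 in DESeq2, 37 and 20 in the exact test, 1 and 0 in limma-voom and 132 and 80 in DESeq2 with the block. Leaving out 1 library gave 0 to 8 genes higher and 0 lower, with the 8 without PBS replicate 2. Members with all PTZ libraries above all PBS libraries numbered 4 with library totals only (Dusp8 and Spry1 added), and 2 to 4 when 1 library was left out. Members below numbered 1 (Dusp10) under the authors' scaling and 0 to 1 when 1 library was left out (Dusp5 or Dusp10). The share of all genes was taken only in the main setting (7.3% above and 7.04% below). Groups with fewer libraries separate more easily, so the counts with 1 library left out are not a result about the members. The settings with library totals only and with the authors' scaling kept every library and differed from the main setting in scaling. The members' median was 0.72 with the filter at a mean of 5 CPM, which leaves 5 members, and 0.23 to 0.71 when 1 library was left out, with the highest value without PBS replicate 2. Dusp4, Dusp5, Dusp10, Spry2 and Spry4 had at most 81 reads in any library. The cause of these changes was not tested.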

Other observations

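The list of atypical and other dual-specificity phosphatases, some of which (Dusp3 among them) can also act on MAP kinases while the slingshot enzymes act on the actin regulator cofilin, was centred near 0. Of 14 tested genes 7 had a positive and 7 a negative log2 fold change (median -0.0027), and 0 of them stood at an unadjusted p under 0.05 in edgeR. Dusp3 averaged 199.9 ± 44.2 CPM with PTZ against 204 ± 72.8 CPM with PBS, a log2 fold change of -0.03 (SE 0.29). The cofilin phosphatase genes Ssh2 (76.3 ± 24.4 CPM with PTZ against 53.7 ± 20.5 CPM with PBS, 0.51, SE 0.34) and Ssh1 (27.6 ± 9.41 CPM with PTZ against 19.97 ± 10.7 CPM with PBS, 0.47, SE 0.45) had the smallest p of this list. Dusp3 was chosen after its values were seen.

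The ERK5 branch, known in endothelium for its response to blood flow, had 4 tested genes, 3 with a positive value and a median of 0.20. Map3k3, the upstream kinase gene, averaged 188 ± 21.7 CPM with PTZ against 143 ± 30.8 CPM with PBS (log2 fold change 0.39, SE 0.22), and Mapk7, which encodes ERK5 itself, averaged 15.6 ± 5.04 CPM with PTZ against 19.3 ± 3.39 CPM with PBS (-0.30, SE 0.35). Neither stood at an unadjusted p under 0.05 in edgeR.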
